A study of Homo sapiens with 4 samples.

Results

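The genes described here encode 9 chromatin-linked proteins that are substrates of the ubiquitin ligase adaptor SPOP: BRD2, BRD3, DEK, TRIM24, NCOA3, SETD2, MACROH2A1, DAXX and SENP7. They were found by matching the symbols to the Ensembl gene IDs of the count tables, with the version dropped, which gave 1 row for each of the 9 genes among 60614 gene IDs. Each of the 9 passed the filter on low counts, as did 17539 genes in all. RNA-seq libraries were made from DU145, a human prostate cancer line long in use, as 2 libraries of SPOP-F133V cells and 2 of wild-type cells. Both genotypes were grown in the same serum-containing medium with antibiotics. How the F133V cells were made, whether they are 1 clone, whether the wild-type cells also received SPOP, and whether replicates came from separate cultures are not stated in the labels. P-values therefore measure only the spread between these libraries, which may be technical.

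SPOP recruits proteins to a CUL3 ubiquitin ligase through its MATH domain, and the proteins it binds are ubiquitinated and often degraded. F133V, like the other substitutions of the MATH domain found in prostate cancer, changes the pocket that binds these substrates, and in such tumours several substrates accumulate as proteins. The 9 proteins act on chromatin in different ways. BRD2 and BRD3 are BET proteins, which read acetylated histones through their bromodomains. TRIM24 reads histone H3 through a PHD finger and a bromodomain and coactivates nuclear receptors. SETD2 is the enzyme that trimethylates lysine 36 of histone H3, written H3K36, over transcribed genes, and NCOA3 is a p160 coactivator of nuclear receptors. DEK is a DNA-binding chromatin architectural protein, MACROH2A1 a variant of histone H2A, DAXX a chaperone of the histone variant encoded by H3-3A and H3-3B, and SENP7 a protease that trims SUMO chains. RNA counts do not measure the proteins, so they do not show substrate accumulation.

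The libraries held 35173245 to 39642063 reads counted in genes. SENP7 had the fewest reads of the 9 genes, 306 in its lowest library, so counting error weighs most on its values. The summed level of 5 epithelial markers was 2242 and 2440 CPM in the F133V libraries, against 1834 and 1833 CPM in the wild-type libraries. CPM is a count scaled to library size with edgeR's TMM factors. Of 5 prostate luminal markers, KLK3 and KLK2 had no read in any library. No fibroblast or endothelial marker exceeded 7.54 CPM, and the hematopoietic markers summed to at most 2.66 CPM. SPOP itself averaged 1160.9 ± 14.6 CPM in the F133V libraries, against 875 ± 44.2 CPM in the wild-type libraries (SD, n = 2 per genotype), a log2 fold change of 0.41 ± 0.055 (SE), or 0.53 when adjusted for transcript GC content and length. Gene counts do not separate mutant from wild-type SPOP transcripts, so this does not check which library carries the mutation.

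DEK, SETD2 and TRIM24 had less mRNA in F133V cells, with or without an adjustment for the GC content of each transcript. DEK fell most, to a fold of 0.51, and to 0.71 with the adjustment. SENP7 fell to a fold of 0.55 without the adjustment and did not pass the test with it. NCOA3 was lower without the adjustment and higher with it, BRD2 and MACROH2A1 were lower in the adjusted fit alone, and BRD3 and DAXX passed in neither fit. In the unadjusted fit 0 of the 9 genes were higher, 5 lower and 4 not called. Of all tested genes 27.2% were called higher and 27.6% lower (edgeR quasi-likelihood test, Benjamini-Hochberg (BH) adjusted p under 0.05). In the adjusted fit 1 was higher, 5 lower and 3 not called, beside 28.0% higher and 24.3% lower among 17299 genes. The median log2 fold change of the 9 genes was -0.19 unadjusted and -0.18 adjusted, and over all tested genes it was 0.022 in both fits. The unadjusted median of the 9 genes was -0.32 without F133V replicate 1 and -0.077 with upper-quartile scaling, which moved the median of all genes to 0.13. Lower in both fits were 3 of the 9, and 14.6% of all genes. None of the 9 genes both passed unadjusted and changed at least 2-fold, as 6.98% of all tested genes did.

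**Figure D1:**
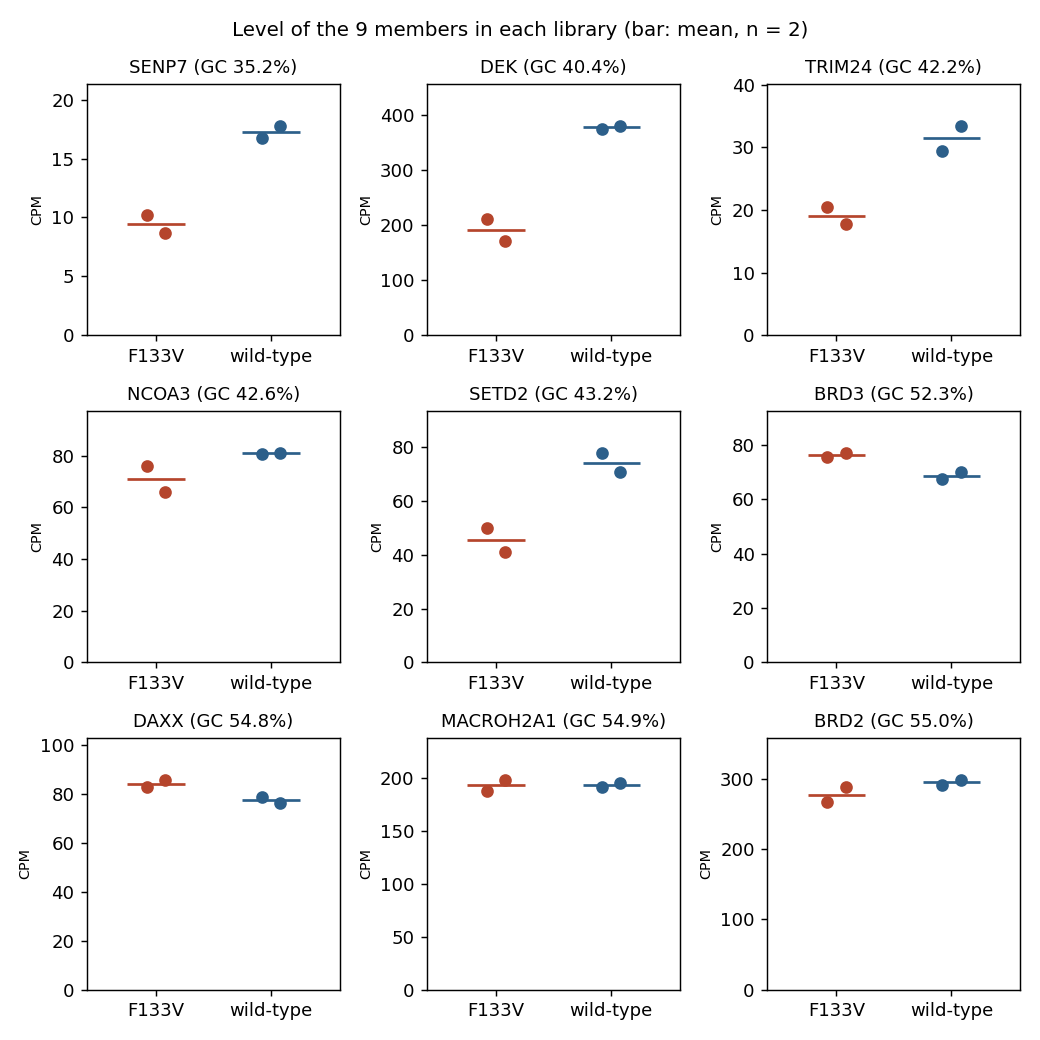
Level of each gene in CPM (vertical axes, starting at 0) in the 2 F133V libraries (left, red) and the 2 wild-type libraries (right, blue); points are libraries, bars are means, and panels run from the lowest to the highest GC content of the transcript. The 5 panels of lowest GC content, SENP7 to SETD2, have both F133V points below both wild-type points, and the genotypes overlap in MACROH2A1 alone.

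The adjustment is needed beside each value because the difference between the genotypes ran with GC content across all expressed genes, and the 9 genes fall on both sides of that trend. The GC content of the longest protein-coding transcript was 35.2% in SENP7, 40.4% in DEK, 42.2% in TRIM24, 42.6% in NCOA3 and 43.2% in SETD2. It was 52.3% in BRD3, 54.8% in DAXX, 54.9% in MACROH2A1 and 55.0% in BRD2. The 5 genes under 44% are the 5 that were called lower without the adjustment, and the 4 over 52% are those not called. Among expressed genes of 40 to 44% GC, 2053 in number, the median log2 fold change was -0.36, and among the 1435 genes of 52 to 56% it was 0.14. The F133V replicates also differed from each other along GC content: replicate 2 over replicate 1 had a median log2 ratio of -0.13 in the first of these bins and 0.064 in the second. The wild-type replicates gave 0.0059 and 0.0046. The same was seen in single genes of the group, where replicate 2 over replicate 1 of F133V was -0.30 in DEK, -0.28 in SETD2, -0.23 in SENP7, and -0.20 in TRIM24 and in NCOA3. In F133V cells it was 0.033 in BRD3, 0.053 in DAXX, 0.076 in MACROH2A1 and 0.11 in BRD2. A smooth of each library on GC content and transcript length, entered as an offset in the same test, brought the bin medians to 0.021 and -0.013. An offset of this kind also takes out any difference between the genotypes that follows GC content, and the part of GC content in the fold changes was not otherwise tested.

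**Figure D2:**
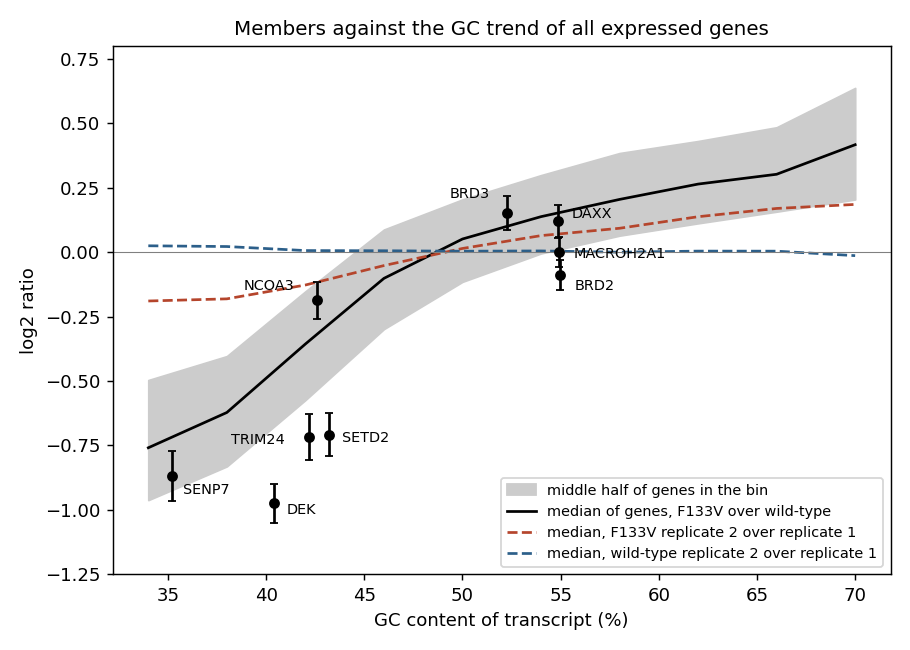
Log2 ratio (vertical axis) against GC content of the transcript in percent (horizontal axis); the black line is the median and the grey band the range between the quartiles of expressed genes in bins of 4 percentage points, the dashed lines are the medians of replicate 2 over replicate 1 within F133V (red) and wild-type (blue), and points are the 9 genes with SE. DEK, TRIM24 and SETD2 lie below the band, SENP7 inside it and NCOA3 near its upper edge, and BRD2 and MACROH2A1 lie at or under its lower edge.

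Per kilobase of transcript, the genes span a wide range of levels. In F133V cells MACROH2A1 was highest at 69.2 ± 2.57 CPM per kilobase, followed by BRD2 at 56.6 ± 3.05, DEK at 55.9 ± 8.28, DAXX at 32.2 ± 0.829, BRD3 at 13.5 ± 0.215, NCOA3 at 8.95 ± 0.879, SETD2 at 5.58 ± 0.776, TRIM24 at 2.27 ± 0.226 and SENP7 at 1.91 ± 0.217 (SD, n = 2 libraries). In wild-type cells DEK was highest at 110.0 ± 1.35 CPM per kilobase, followed by MACROH2A1 at 69.3 ± 1.01, BRD2 at 60.2 ± 1.03, DAXX at 29.7 ± 0.765, BRD3 at 12.1 ± 0.320, NCOA3 at 10.2 ± 0.0389, SETD2 at 9.13 ± 0.634, TRIM24 at 3.74 ± 0.346 and SENP7 at 3.49 ± 0.155 (SD, n = 2). These levels use the longest protein-coding transcript. Per kilobase of the longest transcript of any type, MACROH2A1 stood at 17.6 ± 0.652 in the F133V libraries, against 17.6 ± 0.255 in the wild-type libraries (CPM per kilobase; SD, n = 2 per genotype), below DAXX and above BRD3 in both. With coding transcripts and unadjusted CPM, the order is the same in both genotypes but for DEK, which stood above MACROH2A1 and BRD2 in wild-type cells alone. Neighbours in that order whose libraries overlap were BRD2 and DEK in F133V cells, and TRIM24 and SENP7 in wild-type cells. This place of DEK depends on the GC adjustment. GC-adjusted levels in F133V replicates 1 and 2 were 238 and 213 CPM in DEK, with a transcript of 3427 bases. They were 261 and 267 CPM in BRD2 (4894 bases), and 182 and 181 CPM in MACROH2A1 (2789 bases). Per kilobase, DEK then lay above BRD2 in F133V cells too and overlapped MACROH2A1.

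Of the histone readers, TRIM24 was lower in F133V cells and neither BET gene passed the unadjusted test. TRIM24 (ENSG00000122779.18, chromosome 7, 138460334 to 138589993, plus strand) was at 20.4 and 17.7 CPM in F133V replicates 1 and 2, and at 29.4 and 33.5 CPM in wild-type replicates 1 and 2. Both F133V libraries were below both wild-type libraries, as in 37.8% of all tested genes. TRIM24 fell with a log2 fold change of -0.72 ± 0.089 (SE; edgeR BH-adjusted p = 9.74e-07), and of -0.29 ± 0.061 with the GC and length offset (edgeR BH-adjusted p = 1e-04). It was called lower in each of the 18 alternatives, with log2 fold changes of -0.85 to -0.20. In bulk libraries, less RNA per cell and fewer cells that carry it cannot be told apart, here and for each gene that follows.

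BRD2 (ENSG00000204256.14, chromosome 6, 32968660 to 32981505, plus strand) was at 266 and 288 CPM in F133V replicates 1 and 2, and at 291 and 298 CPM in wild-type replicates 1 and 2. Ranges of the genotypes did not overlap, yet the highest F133V library and the lowest wild-type library lay close together. The BRD2 log2 fold change was -0.090 ± 0.059 and missed the threshold (edgeR BH-adjusted p = 0.206). With the offset it was -0.23 ± 0.032 and passed (edgeR BH-adjusted p = 8.48e-08), as it did in each of the 8 fits with an offset and, at -0.15, without F133V replicate 2 and with no offset (edgeR BH-adjusted p = 0.000103). Upper-quartile scaling turned its sign, to 0.022. BRD2 lies in the MHC class II region. Its 20 nearest tested genes spanned 0.627 Mb and had a median log2 fold change of 0.56, or 0.37 with the offset. With the offset 12 of them were called higher and 2 lower, beside 28.0% and 24.3% of all genes. A 55-base stretch of BRD2 exons is shared with HLA-DMA on the opposite strand. HLA-DMA had 903 and 822 reads in the F133V libraries, against 547 and 477 reads in the wild-type libraries. The sources used do not state whether counting used strand, so reads of overlapping genes cannot be told apart.

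BRD3 (ENSG00000169925.17, chromosome 9, 134030305 to 134068535, minus strand) was at 75.3 and 77.0 CPM in F133V replicates 1 and 2, and at 67.2 and 69.8 CPM in wild-type replicates 1 and 2. Both F133V libraries were above both wild-type libraries, as in 40.1% of tested genes. The log2 fold change of BRD3 was 0.15 ± 0.066 (edgeR BH-adjusted p = 0.0546) and 0.085 ± 0.040 with the offset (edgeR BH-adjusted p = 0.0714), so it missed in both. It passed in 4 of the 18 alternatives, which were upper-quartile scaling, a stricter filter, and each F133V library left out without an offset, and in none of the 8 with an offset. BRD3OS, on the opposite strand, overlaps 18.6% of the exon bases of BRD3. It had 1203 and 1128 reads in the F133V libraries, against 1236 and 1193 in the wild-type libraries.

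SETD2 (ENSG00000181555.21, chromosome 3, 47016429 to 47163967, minus strand) was lower in F133V cells. It was at 49.9 and 41.0 CPM in F133V replicates 1 and 2, and at 77.9 and 70.6 CPM in wild-type replicates 1 and 2. No library of one genotype reached the range of the other. SETD2 fell with a log2 fold change of -0.71 ± 0.084 (edgeR BH-adjusted p = 5.14e-07), a fold of 0.61, and of -0.36 ± 0.049 with the offset (edgeR BH-adjusted p = 5.43e-08), a fold of 0.78. It stayed called in each of the 18 alternatives, between -0.89 and -0.28. Its 20 nearest tested genes, over 2.09 Mb, had a median log2 fold change of 0.018, and of -0.12 with the offset. With the offset 8 of them were called lower and 4 higher, beside 24.3% and 28.0% of all genes.

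NCOA3 (ENSG00000124151.19, chromosome 20, 47501902 to 47656877, plus strand) changed direction with the adjustment. It was at 76.0 and 66.1 CPM in F133V replicates 1 and 2, and at 80.7 and 81.2 CPM in wild-type replicates 1 and 2. After the offset its GC-adjusted levels were 83.3 and 78.9 CPM in the F133V libraries, against 70.7 and 70.6 CPM in the wild-type libraries. The genotypes did not overlap on either scale, with F133V below on the first and above on the second. The log2 fold change was -0.19 ± 0.072 (edgeR BH-adjusted p = 0.0322) and 0.20 ± 0.040 with the offset (edgeR BH-adjusted p = 5.67e-05). The unadjusted NCOA3 log2 fold change lost its call without F133V replicate 2, at -0.092 (edgeR BH-adjusted p = 0.0614), and without either wild-type library, at -0.19 (edgeR BH-adjusted p = 0.252 without replicate 1 and 0.268 without replicate 2). It also lost it with upper-quartile scaling, at -0.077 (edgeR BH-adjusted p = 0.365), and in DESeq2, at -0.20 (BH-adjusted p = 0.0574). Without F133V replicate 1 it was -0.32 and still called, and with the offset 0.12. Of all genes, 4.07% were called in opposite directions by the 2 fits.

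DEK (ENSG00000124795.17, chromosome 6, 18223868 to 18264823, minus strand) fell most of the 9 genes, in both fits. It was at 212 and 172 CPM in F133V replicates 1 and 2, and at 374 and 380 CPM in wild-type replicates 1 and 2. Even the highest F133V library was far below the lowest wild-type library, and the F133V libraries were farther apart than the wild-type ones. The log2 fold change was -0.98 ± 0.074 (edgeR BH-adjusted p = 1.9e-09), lower than in all but 3.18% of tested genes. GC-adjusted levels were 238 and 213 CPM in the F133V libraries, against 318 and 321 CPM in the wild-type libraries. The log2 fold change was then -0.50 ± 0.036 (edgeR BH-adjusted p = 6.68e-15), and 6.02% of genes were lower. DEK was called lower in each of the 18 alternatives, between -1.17 and -0.43. Its 20 nearest tested genes, over 7.43 Mb, had a median log2 fold change of -0.12, and of 0.085 with the offset. With the offset 5 of them were called lower and 7 higher, beside 24.3% and 28.0% of all genes. The 20 nearest genes of TRIM24 and SENP7 had medians of -0.25 and -0.26, and of 0.052 and -0.031 with the offset. Those of BRD3, NCOA3, MACROH2A1 and DAXX had 0.20, 0.27, 0.069 and 0.18. With the offset these were -0.035, 0.13, 0.13 and -0.026.

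The promoters of DEK and SETD2 are shown because both genes fell in both fits. They are the 250 bases before each RefSeq start on GRCh38.p14, minus strand, written 5′ to 3′, at chr6:18264531-18264780 for DEK and chr3:47164114-47164363 for SETD2. In GENCODE 29 the DEK gene reaches 18264823, so the whole DEK window lies inside that gene. The SETD2 gene reaches 47163967, and its window lies outside it. Positions from the start therefore depend on the annotated start that is used. RefSeq promoters were found for 6 of the 9 genes. Capitals mark matches on either strand to GGGCGG, the GC box bound by SP and KLF factors, and to CCAAT, the box bound by NF-Y.
DEK: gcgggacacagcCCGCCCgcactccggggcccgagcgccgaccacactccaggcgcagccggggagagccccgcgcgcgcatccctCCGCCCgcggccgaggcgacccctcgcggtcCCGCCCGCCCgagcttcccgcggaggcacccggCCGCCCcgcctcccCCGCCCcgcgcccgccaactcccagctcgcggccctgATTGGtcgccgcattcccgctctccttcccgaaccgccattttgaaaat
SETD2: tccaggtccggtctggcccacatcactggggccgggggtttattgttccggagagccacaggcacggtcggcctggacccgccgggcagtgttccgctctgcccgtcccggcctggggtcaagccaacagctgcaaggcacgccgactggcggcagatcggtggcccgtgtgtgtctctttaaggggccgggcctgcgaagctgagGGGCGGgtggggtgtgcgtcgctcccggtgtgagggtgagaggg
The DEK window has 6 GC boxes, 2 of which overlap, and 1 CCAAT box at bases -49 to -45 from the start, and the SETD2 window has 1 GC box at -44 to -39. Over the 35116 promoter windows of the same length, 42.6% hold a GC box and 32.0% a CCAAT box. The E2F-type TTTNGCGC (1.51% of windows), the ETS-type CCGGAAGT (3.42%), the NRF1-type palindrome (1.03%) and the cyclic AMP response element TGACGTCA (1.65%) have no match in either window, nor in those of BRD2, BRD3, NCOA3 and MACROH2A1. The GC content of the promoter windows was 77.6% for DEK and 69.6% for SETD2, unlike the low GC content of their transcripts. A match describes the letters and not binding.

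MACROH2A1 (ENSG00000113648.16, chromosome 5, 135333900 to 135399914, minus strand) was at 188 and 198 CPM in F133V replicates 1 and 2, and at 191 and 195 CPM in wild-type replicates 1 and 2. It is the 1 gene of the 9 whose CPM overlapped between genotypes, and its log2 fold change was -7.8e-04 ± 0.059 (edgeR BH-adjusted p = 0.993). With the offset it was -0.18 ± 0.033 (edgeR BH-adjusted p = 1.45e-05). That call rests on the transcript that stands for the gene. The longest protein-coding transcript has 2789 bases and 54.9% GC, whereas the longest of any type has 10982 bases and less GC. With the longest of any type the MACROH2A1 log2 fold change was 0.31 ± 0.039, and the gene was called higher. The antisense gene C5orf66 overlaps 28.0% of its exon bases and had 85 to 117 reads a library. Gene counts do not separate the splice forms of macroH2A1.

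DAXX (ENSG00000204209.13, chromosome 6, 33318558 to 33323016, minus strand) was at 82.7 and 85.7 CPM in F133V replicates 1 and 2, and at 78.9 and 76.1 CPM in wild-type replicates 1 and 2. F133V was above wild-type without overlap, by a small margin. DAXX had a log2 fold change of 0.12 ± 0.065 (edgeR BH-adjusted p = 0.128) and of -0.063 ± 0.039 with the offset (edgeR BH-adjusted p = 0.177), so neither passed and the signs differed. Among the alternatives with no offset it passed as higher at 0.23 with upper-quartile scaling and at 0.11 without F133V replicate 1. With the offset and without that replicate it passed as lower, at -0.11 (edgeR BH-adjusted p = 0.0189).

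SENP7 (ENSG00000138468.16, chromosome 3, 101324205 to 101513241, minus strand) has the lowest GC content and the lowest level of the 9 genes. It was at 10.2 and 8.67 CPM in F133V replicates 1 and 2, and at 16.7 and 17.8 CPM in wild-type replicates 1 and 2. These correspond to 374 and 306 reads in the F133V libraries, against 656 and 635 reads in the wild-type libraries. The genotypes were well apart, with a log2 fold change of -0.87 ± 0.097 (edgeR BH-adjusted p = 2.57e-07). GC-adjusted levels were 12.4 and 12.0 CPM in the F133V libraries, against 13.1 and 13.6 CPM in the wild-type libraries. Its log2 fold change was then -0.13 ± 0.076 (edgeR BH-adjusted p = 0.164). It was called lower in the 10 alternatives without an offset, and missed in the 8 with one, where it ran from -0.18 to -0.097.

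**Figure D3:**
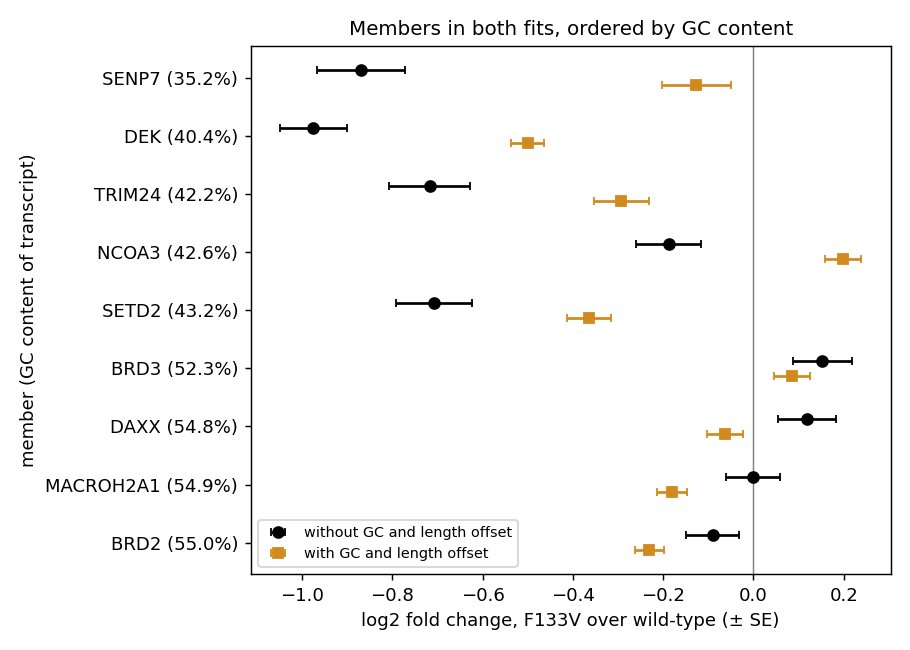
Log2 fold change of F133V over wild-type with SE (horizontal axis) for each gene, ordered down the page by GC content, without (black circles) and with (orange squares) the GC and length offset. The offset moved the 5 genes of low GC content up, by 0.34 in SETD2 to 0.74 in SENP7, and the 4 of high GC content down, and DEK, TRIM24 and SETD2 stay below 0 in both fits.

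**Figure D4:**
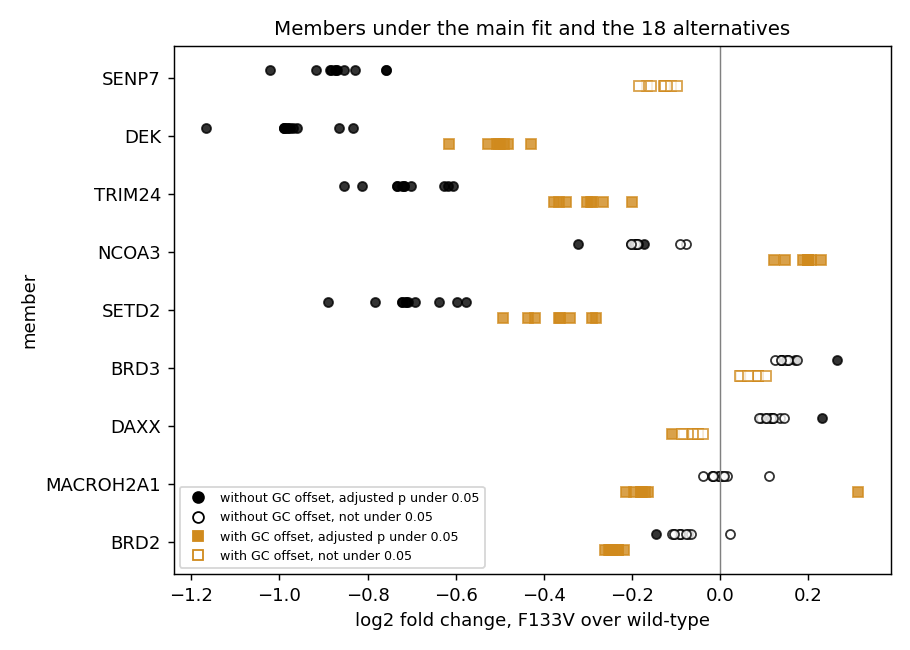
Log2 fold change of each gene (horizontal axis) in the main fit and the 18 alternatives, without a GC offset (black circles) and with one (orange squares); filled symbols had an adjusted p under 0.05. All symbols of DEK, TRIM24 and SETD2 are filled and below 0, the SENP7 squares are open, and NCOA3 lies on opposite sides of 0.

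Counted over libraries, 6 of the 9 genes had both F133V values below both wild-type values in CPM, 2 had them above and 1 overlapped. Over all tested genes 37.8% were below and 40.1% above, 78.0% in all. On the GC-adjusted scale 7 were below and 2 above, beside 35.4% and 40.0% of all genes, 75.5% in all.

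Genes whose 4-library pattern came closest to that of DEK, by Euclidean distance of log2 CPM centred on each gene, were XRN1, an RNA exonuclease (distance 0.020), and CEP97, a centriole protein (0.025). Those closest to SENP7 were CCP110, also a centriole protein (0.0097), and PBRM1, a bromodomain subunit of a SWI/SNF complex (0.015). DEK and SENP7 were taken as the 2 genes of lowest adjusted p. The 4 neighbours had GC contents of 37.0% to 40.4% and GC-adjusted log2 fold changes of -0.25 in XRN1, -0.23 in CEP97, -0.25 in CCP110 and -0.33 in PBRM1. Nearness over 4 libraries is a description.

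Partners and relatives of the 9 proteins were counted in 6 lists, and the ligase in another. Each count is to be read beside the share of all tested genes, which was 27.2% higher and 27.6% lower, and with the offset 28.0% higher and 24.3% lower. Among TIF1 proteins and nuclear receptor coactivators, the relatives of TRIM24 and NCOA3, 0 of 11 tested genes were higher, 7 lower and 4 not called, with a median log2 fold change of -0.27. With the offset 1 was higher, 9 lower and 1 not called, and the median was -0.24. TRIM33, a TIF1 relative of TRIM24, fell by 0.97 on the log2 scale, at 24.8 ± 2.12 CPM in the F133V libraries against 48.8 ± 0.856 CPM in the wild-type libraries (SD, n = 2 per genotype), and by 0.34 with the offset. NCOA2, a p160 relative of NCOA3, fell by 0.86, at 27.3 ± 0.752 CPM in the F133V libraries against 49.6 ± 0.629 CPM in the wild-type libraries (SD, n = 2 per genotype), and by 0.52 with the offset. NCOA1, the other p160 coactivator and named here after its values were seen, fell by 0.35 unadjusted and gave -0.069 with the offset (edgeR BH-adjusted p = 0.257). With the offset and without F133V replicate 1 the NCOA1 log2 fold change was -0.14 and called. Without wild-type replicate 1, 4 of the 11 were called lower with no offset, and without F133V replicate 1, 2 were called higher. Of the 3 p160 genes, NCOA2 was called lower and NCOA3 higher in the adjusted fit.

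Among histone variants and chaperones, 2 of 31 tested genes were higher, 16 lower and 13 not called (27.2% higher and 27.6% lower over all genes), with a median of -0.19. With the offset 6 were higher and 17 lower (28.0% and 24.3% over all genes), and the median was -0.10. The count of lower genes with no offset was 9 without wild-type replicate 1 and 8 without wild-type replicate 2, and with the offset 11 without wild-type replicate 1; 5 genes were higher without F133V replicate 1 and 1 without either wild-type library. ATRX, the remodeller that works with DAXX, fell by 1.15 on the log2 scale, and by 0.41 with the offset. It was at 23.7 ± 4.45 CPM in the F133V libraries against 52.8 ± 0.818 CPM in the wild-type libraries (SD, n = 2 per genotype). ANP32E, a chaperone that removes the H2A variant encoded by H2AZ1 and H2AZ2, fell by 1.08, and by 0.40 with the offset. PML, the scaffold of the nuclear bodies that hold DAXX, rose by 0.37, and by 0.18 with the offset. CABIN1, of the HIRA chaperone complex, rose by 0.23 and gave 0.062 with the offset (edgeR BH-adjusted p = 0.188); without wild-type replicate 1 or 2 the CABIN1 log2 fold change was 0.20 or 0.25 and not called. MACROH2A2, the paralog of MACROH2A1 and named here after its values were seen, had 0.17 (edgeR BH-adjusted p = 0.0515) and 0.0020 with the offset; without F133V replicate 1 and with no offset the MACROH2A2 log2 fold change was 0.21 and called.

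In the H3K36 methylation list, which holds other methyltransferases of H3K36, demethylases and readers of its methylated forms, and elongation factors, 3 of 21 tested genes were higher, 9 lower and 9 not called (27.2% higher and 27.6% lower over all genes), with a median of -0.11. With the offset 6 were higher and 8 lower (28.0% and 24.3% over all genes), with a median of -0.059. Of the higher genes with no offset, the count was 0 without either wild-type library and 6 without F133V replicate 1, and with the offset it was 3 without wild-type replicate 1. The methyltransferase ASH1L fell by 0.65, and by 0.34 with the offset. MTF2, a Polycomb-like reader, fell by 0.77, and by 0.14 with the offset. The demethylase KDM4A rose by 0.25, and by 0.21 with the offset. PHF1, another Polycomb-like reader, rose by 0.25 and gave -0.014 with the offset (edgeR BH-adjusted p = 0.827). Without wild-type replicate 1 or 2 and with no offset, the PHF1 log2 fold change was 0.28 or 0.22 and the KDM4A log2 fold change 0.21 or 0.28, none of them called. With the offset KDM4A was not called without wild-type replicate 1, at 0.17, nor was the MTF2 log2 fold change without wild-type replicate 1 or 2, at -0.14 or -0.13.

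In the SUMO pathway, 3 of 22 tested genes were higher, 12 lower and 7 not called (27.2% higher and 27.6% lower over all genes), with a median of -0.24. With the offset 3 were higher, 8 lower and 11 not called (28.0% and 24.3% over all genes), and the median was -0.056. Without either wild-type library and with no offset, 0 were called higher. SENP6, the closest relative of SENP7, fell by 0.79 and gave -0.050 with the offset (edgeR BH-adjusted p = 0.366), so both SUMO-chain proteases lost their calls. RANBP2, a SUMO ligase of the nuclear pore, fell by 1.17, and by 0.53 with the offset. Reads that RANBP2 may share with similar gene copies were not examined.

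Among BET proteins and P-TEFb genes, the elongation kinase complex that BET proteins recruit and its regulators, 1 of 10 tested genes was higher, 4 lower and 5 not called (27.2% higher and 27.6% lower over all genes), with a median of -0.14. With the offset 3 were higher and 5 lower (28.0% and 24.3% over all genes), and the median was again -0.14. With the offset 1 was higher without F133V replicate 1 or either wild-type library, and 3 were lower without wild-type replicate 1. With no offset 4 were higher without F133V replicate 1 and 2 without F133V replicate 2. The cyclin CCNT2 fell by 0.89, and by 0.19 with the offset; without wild-type replicate 1 or 2 the offset CCNT2 log2 fold change was -0.18 or -0.19 and not called. LARP7, which holds the kinase in its inactive RNA complex, fell by 0.84, and by 0.26 with the offset. HEXIM2, an inhibitor of the kinase, rose by 0.73, and by 0.43 with the offset.

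Other SPOP substrates, 29 tested of 34, had 5 higher, 11 lower and 13 not called (27.2% higher and 27.6% lower over all genes), with a median of -0.085. With the offset 7 were higher and 12 lower (28.0% and 24.3% over all genes), and the median was -0.066. BMI1, a Polycomb protein, fell by 0.85, and by 0.30 with the offset. DDIT3, a stress transcription factor, rose by 0.55, and by 0.45 with the offset, and SQSTM1, an autophagy receptor, rose by 0.34, and by 0.12 with the offset; without wild-type replicate 2 the offset SQSTM1 log2 fold change was 0.10 and not called. G3BP1, a stress granule protein, fell by 0.70 and gave -0.023 with the offset (edgeR BH-adjusted p = 0.582). G3BP1 was called lower in at least 1 of the 8 alternatives with an offset. Over those 8 the G3BP1 log2 fold change ran from -0.083 to -0.010. The lowest of these came from a fit that kept every library. In the ligase itself, 1 of 6 tested genes, SPOP, was higher, and CUL3, SPOPL and CAND1 were lower, with a median of -0.36. With the offset 2 were higher and 2 lower, and the median was -0.087; without F133V replicate 1 or either wild-type library 1 was then higher, and without either wild-type library 1 lower. CUL3, the cullin scaffold of the ligase and named here after its values were seen, fell by 0.59 with no offset and was called higher with it, at 0.093 (edgeR BH-adjusted p = 0.0436). The offset CUL3 log2 fold change was 0.0068 without F133V replicate 1, 0.11 without wild-type replicate 1 and 0.076 without wild-type replicate 2, none of them called. The paralog SPOPL fell by 0.84 and CAND1, an exchange factor of cullin ligases, by 0.69. Neither passed with the GC and length offset, at -0.099 and -0.075 (edgeR BH-adjusted p = 0.221 and 0.0589). Over the 8 alternatives with an offset the CAND1 log2 fold change ran from -0.14 to -0.063. The lowest of these came from a fit that kept every library. With the offset the SPOPL log2 fold change passed without F133V replicate 2, at -0.18, and the CAND1 log2 fold change without F133V replicate 1, at -0.13.

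**Figure D5:**
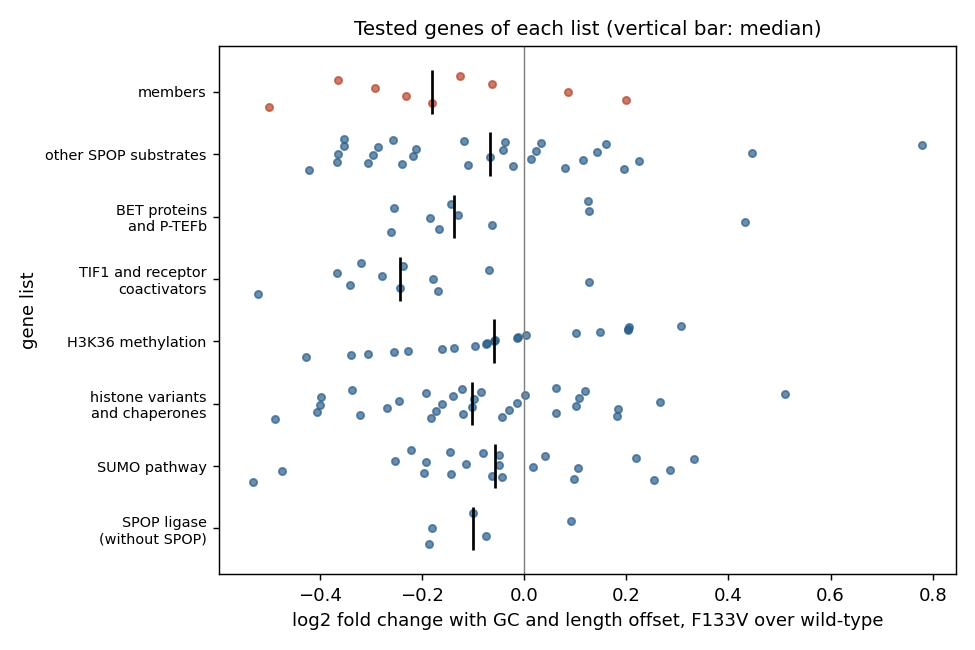
GC-adjusted log2 fold change of F133V over wild-type (horizontal axis) for each tested gene, as a point, of the 9 genes (top, red) and of the companion lists (blue); vertical bars are medians, and SPOP is left out of its list. The 9 genes run from -0.50 in DEK to 0.20 in NCOA3, and the coactivator list has its median at -0.24.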

How the data were processed

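The labels' genotype grouped the RNA-seq libraries. Values are whole-number gene counts of 1 library a file, as deposited by the authors. TopHat2 2.0.10, HTSeq 0.6.0 and build hg38 are named per the submitters' processing notes. The annotation release and strand setting were not given in the sources used. Tallies of reads in no single gene were left out of library sizes and tests; reads in no gene made up 6.12% to 6.53%, reads over more than 1 gene 3.50% to 3.73%, and reads with several alignments 15.1% and 16.6% in F133V and 14.6% and 13.6% in wild-type replicates 1 and 2. Reads per library are in the report; precision is limited by n = 2.

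Genes were kept by filterByExpr, scaled by TMM and compared with the two-sided quasi-likelihood test of edgeR 4.0.16 in R 4.3.3, BH-adjusted over all tested genes at 0.05; SE is the fold change over the square root of F. With 2 residual degrees of freedom, the spread is moderated over genes. Chi-square over degrees of freedom was 8.38 between the F133V and 1.71 between the wild-type replicates, so none is a copy. For the adjusted fit, each library's log2 deviation was smoothed (mgcv 1.9.3, basis dimension 8) on GC content and log2 length of the longest protein-coding transcript in GENCODE 29 (longest transcript where none is coding) over genes above a mean log2 CPM of 2, centred on the median and used as an offset; 98.6% of tested genes had a value. The biological coefficient of variation was 4.64% without and 2.36% with the offset. Alternatives were size-factor and upper-quartile scaling, DESeq2 1.42.0, no filter, a filter of 1 CPM in 2 libraries, GC alone, another transcript choice (added after the data were seen), a replicate block and each library left out, with and without the offset. With 1 library left in a genotype, that library is assumed to vary like the others.

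The 9 genes, the lists and the use of an offset were chosen with earlier results of these data known. Named genes are the 9, SPOP, up to 2 called genes of lowest adjusted p in each direction per list, and the genes of nearest pattern; exceptions are marked, and some genes that the rule names are not reported here. Nearest tested genes on the chromosome were examined after the data were seen. Coordinates are from GENCODE 29 on GRCh38 and promoters from RefSeq. A planned search for the SPOP-binding motif in the proteins was not run.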

Additional observations from a re-analysis of the deposited data

How the results depend on the processing

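The directions and calls of DEK, TRIM24 and SETD2 held in all 18 alternatives. The genes called higher numbered 4763 and the genes called lower 4841; with a library left out the higher ones numbered 2786 to 5225, with 2819 without wild-type replicate 1 and 2786 without wild-type replicate 2. Upper-quartile scaling moved the median log2 change over all genes to 0.13 and the share of calls that were higher to 62.8%, against 49.6%. DESeq2 called 3189 higher and 4088 lower. Of the 9 genes, 0 were called higher in the unadjusted fit, 2 with upper-quartile scaling, 1 with a filter of 1 CPM in 2 libraries, 1 with the GC and length offset, 1 with GC alone, 2 with the longest transcript of any type, 1 with the replicate block and offset together, and 0 to 2 with a library left out. Called lower were 4 to 6 of the 9 in every setting.

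Signs turned as follows; the cause was not tested. The NCOA3 log2 fold change was 0.20 with GC and length, 0.15 with GC alone, 0.19 with the longest transcript of any type, 0.20 with the block and offset, and with a library left out -0.32 to -0.092 with no offset and 0.12 to 0.23 with it. The DAXX log2 fold change was -0.063, -0.050, -0.082 and -0.062 in the same order, and with a library left out 0.088 to 0.14 with no offset and -0.11 to -0.039 with it, of which -0.087 was without wild-type replicate 2. The MACROH2A1 log2 fold change was 0.11 with upper-quartile scaling, 0.015 with the filter of 1 CPM, 0.31 with the longest transcript of any type, and with a library left out -0.039 to 0.0090 with no offset and -0.21 to -0.16 with it. The BRD2 log2 fold change was 0.022 with upper-quartile scaling. The PHF1 log2 fold change was -0.014 with GC and length, -0.030 with the longest transcript of any type, -0.013 with the block and offset, and with a library left out 0.20 to 0.28 with no offset and -0.058 to 0.0051 with it, of which -0.037 was without wild-type replicate 2. The CABIN1 log2 fold change was -0.0098 with GC alone. The CUL3 log2 fold change was 0.093 with GC and length, 0.066 with GC alone, 0.066 with the longest transcript of any type, 0.091 with the block and offset, and with a library left out -0.77 to -0.46 with no offset and 0.0068 to 0.13 with it, of which 0.076 was without wild-type replicate 2. The MACROH2A2 log2 fold change was -0.017 with the longest transcript of any type, and with a library left out 0.088 to 0.21 with no offset and -0.048 to 0.035 with it, of which -0.032 was without wild-type replicate 2.

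Whether same-numbered replicates were handled together is not stated in the labels. Deviations of same-numbered libraries had a correlation of -0.053. That value cannot decide it, because the F133V replicates differ from each other along GC content and the wild-type replicates hardly do. With a replicate block, the genes called higher numbered 4619 and the genes called lower 4746, and 0 and 5 of the 9 genes were called.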
